A study of Mus musculus with 15 samples.

Results

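The genes described here encode collagens, the triple-helical proteins of the extracellular matrix. They were chosen by name: every protein-coding gene whose mouse symbol has the form Col, a number, the letter a and a number, such as Col9a3. This gave 44 genes among the 53801 genes of the count table, of which 21967 are protein-coding. The rule reads the symbol and no measured value, and the ceramide transfer protein gene Col4a3bp, which has another symbol form, was not counted.

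Collagen chains are made in the endoplasmic reticulum, where prolines and lysines are hydroxylated and chains wind into trimers of like or unlike chains before secretion. Fibrillar collagens build fibrils, FACIT collagens (fibril-associated collagens with interrupted triple helices) attach to them, and collagen IV forms the sheet-like network of basement membranes. In the subventricular zone, extracellular matrix rich in collagen IV and laminin lies close to the neural stem cells. The other classes are the beaded filaments of collagen VI, the anchoring fibrils of collagen VII, the short-chain networks of collagens VIII and X, the multiplexins and the membrane-spanning collagens. Col26a1 and Col28a1 were put in a class named other.

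Poly(A) RNA was sequenced from adult neural stem cells (aNSCs), cells of the subventricular zone grown in suspension, of C57BL6/J-129sv mice aged 2 months. All cultures carried the Rosa26-CreERT2 transgene, a ubiquitously expressed recombinase that 4-hydroxytamoxifen (4-OHT) activates, and a floxed allele of Trrap, the gene of a scaffold protein of histone acetyltransferase complexes. There were 3 groups of 5 cultures: Trrap Fl/+ cultures without treatment (Fl/+ untreated), Fl/+ cultures given 4-OHT (Fl/+ 4-OHT) and Trrap Fl/Fl cultures given 4-OHT (Fl/Fl 4-OHT), with 5 days of treatment per the labels and a shorter exposure followed by fresh medium per the study's methods. Both Fl/+ groups carry the mouse numbers 19, 24, 26, 35 and 36, and the Fl/Fl group the numbers 27, 28, 29, 37 and 39. The effect of 4-OHT was read from Fl/+ 4-OHT against Fl/+ untreated cultures, and that of Trrap deletion from Fl/Fl 4-OHT against Fl/+ 4-OHT cultures. In Fl/+ cultures 4-OHT also recombines the 1 floxed allele, so that treatment and loss of 1 Trrap copy cannot be told apart. There was no untreated Fl/Fl group, and the Fl/Fl cultures come from other mice. Differences between genotypes or mice from before treatment therefore cannot be told apart from deletion. Genes said to rise or fall after deletion were higher or lower in Fl/Fl 4-OHT than in Fl/+ 4-OHT cultures. Both comparisons share the Fl/+ 4-OHT libraries, as the treated side of the first and the control side of the second.

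The libraries held 25.7 M to 32.2 M counts. Trrap was at 193, 214, 184, 179 and 181 CPM (counts scaled to library size) in untreated, 138, 204, 171, 165 and 142 CPM in Fl/+ 4-OHT and 92.9, 115, 142, 89.2 and 82.8 CPM in Fl/Fl 4-OHT libraries, in the order of mouse numbers above, which is kept for all values per library. The Fl/Fl 4-OHT level was lower (log2 fold change -0.64 ± 0.16 (SE), edgeR adjusted p = 0.0115), although the library of mouse 29 lay within the range of the Fl/+ 4-OHT libraries. The library labelled Fl/Fl 39 is labelled female but had 0.313 CPM of Xist and 213 CPM summed over Ddx3y, Eif2s3y, Kdm5d and Uty. In the Fl/+ 4-OHT library of mouse 36, labelled male, Xist was at 74.7 CPM beside 205 CPM of the Y-linked genes. In the Fl/Fl library of mouse 29, labelled male, the Y-linked sum was 106 CPM, against 177 to 235 CPM in the other libraries labelled male. The 10 neural stem cell markers summed to 8833 to 14928 CPM over all libraries.

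Of the 44 collagen genes, 34 passed edgeR's filter on low counts in at least 1 comparison and are the genes called tested below. These were 32 genes after Trrap deletion and 31 genes after 4-OHT, with 29 genes in both. Col6a4, Col8a2 and Col25a1 passed the filter only after deletion, and Col4a4 and Col14a1 only after 4-OHT. The 10 genes that the filter dropped from both, with all libraries in, were Col1a2, Col3a1, Col6a5, Col6a6, Col8a1, Col10a1, Col15a1, Col17a1, Col24a1 and Col28a1. Their highest level in any library ran from 0.0385 CPM for Col10a1, a collagen of hypertrophic cartilage, to 1.36 CPM for Col28a1. Col6a6, Col10a1 and Col17a1, the last a collagen of epithelial attachment plaques, had at most 3 counts in every library, the floor taken here for detection (about 0.105 CPM). No collagen gene had 0 counts in all libraries. Col1a1, which pairs with Col1a2 in collagen I, was at 1.66 ± 0.655 CPM in untreated libraries (SD, n = 5), while Col1a2 had 39 counts and Col3a1 7 counts over all 15 libraries together.

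**Figure D1:**
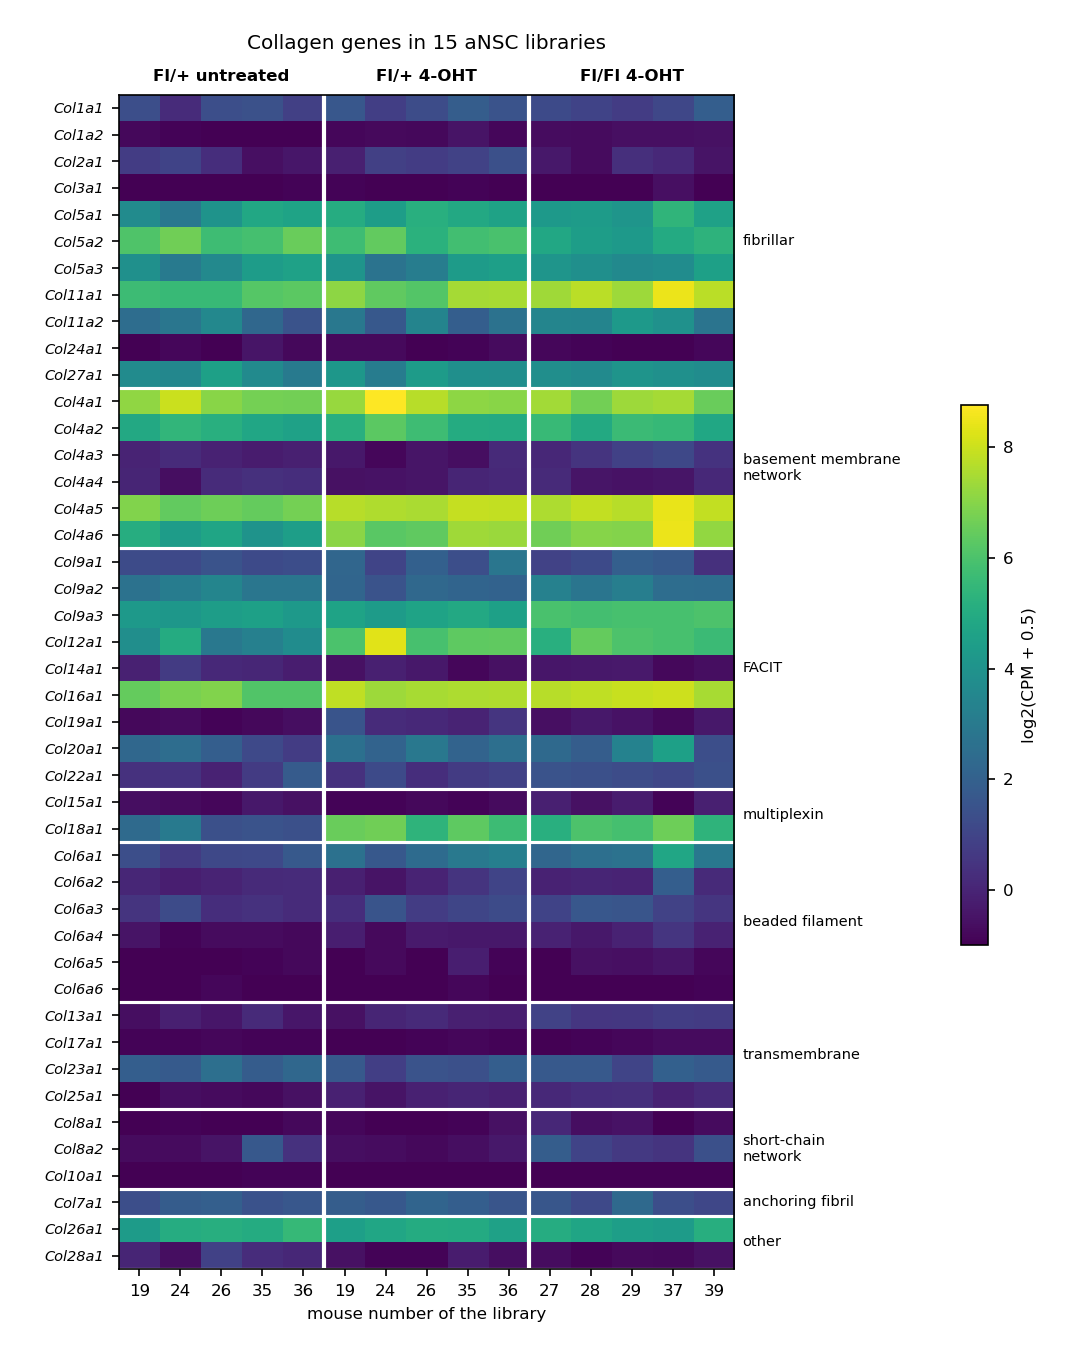
Level of all 44 collagen genes in the 15 libraries, as log2(CPM + 0.5) in colour, with genes in rows by class and libraries in columns by group and mouse number. Col4a1, Col4a5, Col11a1 and Col16a1 are among the bright rows in every group, while the rows of Col1a2, Col3a1, Col6a6, Col10a1 and Col17a1 are dark throughout.

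Levels of different genes are compared only per kilobase of exon. On that scale Col4a1, a chain of the collagen IV found in nearly all basement membranes, led in untreated cultures with 19.8 ± 8.32 CPM per kb (SD, n = 5), followed by Col4a5 with 14.73 ± 2.11 and Col16a1, a FACIT, with 13.6 ± 3.45. Their ranges over libraries overlapped, so the order of these 3 is not resolved. Col5a2, Col9a3, Col4a2, Col11a1 and Col26a1 came next with 4.05 to 7.71 CPM per kb. In Fl/Fl 4-OHT cultures Col4a5 stood at 36.2 ± 9.26, Col16a1 at 33.4 ± 4.91, Col4a6 at 21.4 ± 13.2 and Col4a1 at 18.8 ± 5.30 CPM per kb. The ranges of neighbours overlapped here too, and without the library of mouse 37 Col4a6 was at 15.6 ± 2.22 and Col4a1 at 17.7 ± 5.45 CPM per kb (SD, n = 4), in the opposite order.

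Summed over all 44 genes, the level per kilobase was 79.7 to 108 CPM per kb in untreated, 144 to 200 in Fl/+ 4-OHT and 161 to 258 in Fl/Fl 4-OHT libraries. Every 4-OHT library of either genotype lay above every untreated library, and both genotypes overlapped after 4-OHT. The 6 collagen IV genes held the largest share of this sum in each group, 46.1% ± 5.03 in untreated, 48.8% ± 3.81 in Fl/+ 4-OHT and 44.2% ± 2.9998 in Fl/Fl 4-OHT cultures (SD, n = 5). The 9 FACIT genes held 25.5% ± 3.16, 27.2% ± 1.41 and 31.8% ± 4.10. The multiplexins, which are Col15a1 and Col18a1, held 0.599% ± 0.293, 6.03% ± 1.69 and 4.501% ± 1.06. The 11 fibrillar genes held 21.2% ± 4.60, 14.5% ± 3.13 and 15.5% ± 2.02. Col26a1 and Col28a1 together held 4.64% ± 1.43, 2.00% ± 0.454 and 1.90% ± 0.685. In bulk RNA, fewer cells that express a gene and less RNA per cell cannot be told apart.

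**Figure D2:**
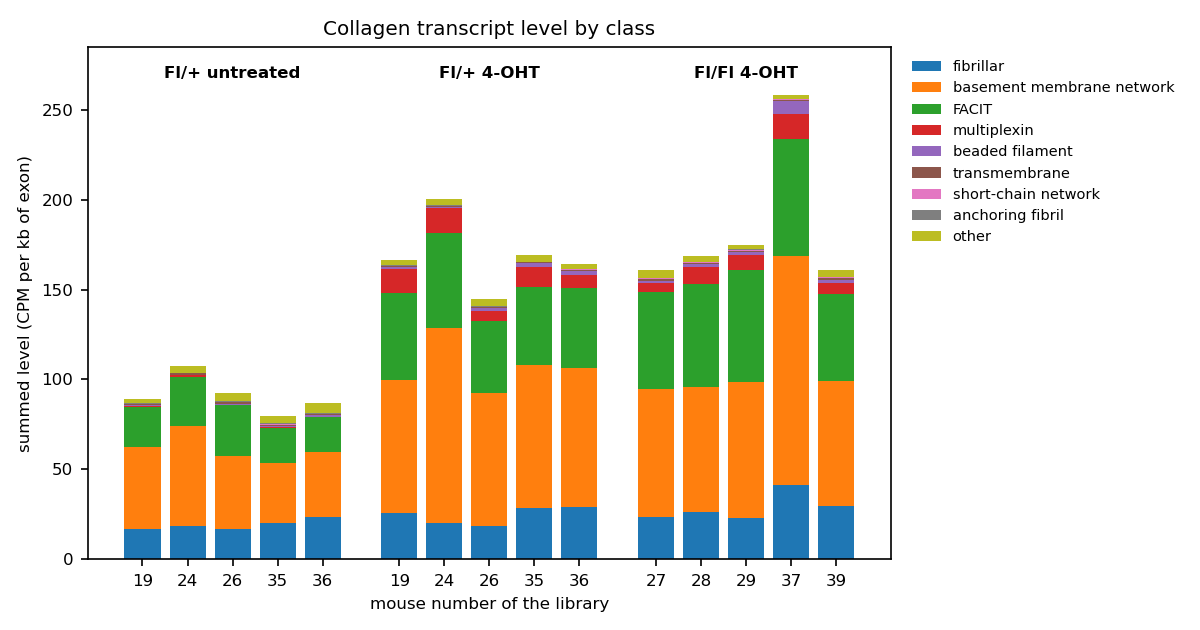
Level of the collagen genes summed by class, in CPM per kb of exon, as stacked bars with 1 bar per library, grouped by genotype and treatment. All bars of the 10 libraries given 4-OHT reach 144 CPM per kb or more and those of the 5 untreated libraries at or below 108, and the Fl/Fl library of mouse 37 is the tallest bar at 258.

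After 4-OHT in Fl/+ cultures, 8 of the 31 collagen genes tested rose and 1 fell at an adjusted p under 0.05 (edgeR's quasi-likelihood test, Benjamini-Hochberg adjustment over all genes). Col18a1, Col19a1, Col12a1, Col4a6, Col6a1, Col11a1, Col4a5 and Col16a1 rose, and Col9a2 fell. Among all 14821 genes tested 13.8% were called, 7.34% higher and 6.45% lower. The median log2 fold change was 0.44 over the 31 collagen genes and -0.01 over all genes. The libraries of the groups did not overlap for 7 collagen genes, against 12.0% of all genes. With the mouse number as a block, which uses that both cultures come from 1 mouse, 16 collagen genes were called, 12 higher and 4 lower, against 25.7% of all genes (13.8% higher and 11.9% lower). The block kept the 9 genes and added Col4a1, Col4a2, Col5a1 and Col9a3 as higher and Col5a2, Col14a1 and Col23a1 as lower. With the block and both cultures of mouse 24 left out, 16 genes were called too, against 18.1% of all genes, of which 12 were shared. Col5a1, Col5a2, Col9a3 and Col23a1 then lost the call, with adjusted p of 0.0530 to 0.109 by edgeR, while Col9a1, Col20a1, Col25a1 and Col28a1 gained it, the last 2 of them dropped by edgeR's filter with all libraries in.

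DESeq2, which has its own filter, called 13 collagen genes after 4-OHT, against 16.6% of all genes with an adjusted p. These were the 9 genes and Col14a1 (-1.47, adjusted p = 0.0289), Col8a2 (-2.37, adjusted p = 0.0387), Col25a1 (2.00, adjusted p = 0.00677) and Col28a1 (-2.16, adjusted p = 0.0155, log2 fold changes by DESeq2). The last 3 were dropped by edgeR's filter, and without a filter edgeR called Col25a1 (1.96, adjusted p = 0.0382) but neither Col8a2 (adjusted p = 0.119) nor Col28a1 (adjusted p = 0.0565). Col8a2 was at 2.69 CPM in the untreated culture of mouse 35 against 0.105 to 0.810 CPM in the other untreated libraries.

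Col18a1, a basement membrane multiplexin whose end piece is endostatin, had the largest log2 fold change of the collagen genes. It was at 4.74, 7.603, 2.10, 2.35 and 2.14 CPM in untreated and 91.4, 98.7, 40.0, 81.3 and 52.0 CPM in Fl/+ 4-OHT libraries. Every treated library was above every untreated one, by a log2 fold change of 4.26 ± 0.42 (SE), edgeR adjusted p = 0.000318. In Fl/Fl 4-OHT libraries it was at 35.2, 65.7, 58.3, 97.4 and 40.7 CPM, which overlapped with Fl/+ 4-OHT (log2 fold change -0.28 ± 0.30 (SE), edgeR adjusted p = 0.513). The stretch before its outer annotated start, one of 2 starts in RefSeq, is shown because this gene rose most. It covers chr10:77166549-77166780 on the minus strand (RefSeq, GRCm38.p6), in lower case with GC boxes, the letters GGGCGG on either strand, in capitals. The counts per gene do not separate both starts.
Col18a1: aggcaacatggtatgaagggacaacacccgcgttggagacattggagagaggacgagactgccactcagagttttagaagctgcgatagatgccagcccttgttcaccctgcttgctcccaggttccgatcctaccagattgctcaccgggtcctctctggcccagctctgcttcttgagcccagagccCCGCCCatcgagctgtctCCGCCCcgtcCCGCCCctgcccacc

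The collagen IV genes lie in 3 head-to-head pairs. After 4-OHT both genes of 1 pair, Col4a6 and Col4a5, were called, beside 13.8% of all genes. Col4a6 was at 33.1, 20.5, 26.1, 15.8 and 21.9 CPM in untreated and 132, 77.05, 82.2, 165 and 158 CPM in Fl/+ 4-OHT libraries. It rose in all 5 mice without overlap, by a log2 fold change of 2.39 ± 0.26 (SE), edgeR adjusted p = 0.000457. Its neighbour Col4a5 was at 119, 85.3, 97.4, 86.5 and 107 CPM and then 213, 192, 182, 239 and 235 CPM. It rose without overlap too, by 1.10 ± 0.12 (SE), edgeR adjusted p = 0.000398. The ratio of Col4a6 to Col4a5 per kilobase was 0.198 ± 0.0344 in untreated, 0.478 ± 0.111 in Fl/+ 4-OHT and 0.558 ± 0.172 in Fl/Fl 4-OHT libraries (SD, n = 5), with no overlap between untreated and treated cultures.

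Col4a6 (chrX:141165403-141474076, minus strand) and Col4a5 (chrX:141475385-141689234, plus strand) are separated by 1308 bases in GRCm38, so the stretches before both starts lie in 1 short interval. They are shown because both genes rose, for chrX:141474077-141474326 on the minus and chrX:141475169-141475384 on the plus strand (RefSeq, GRCm38.p6), with GC boxes in capitals. The Col4a6 stretch holds 1 GC box close to the start. The 250 bases before the RefSeq start of Col4a5 hold 1 GC box too, but the 216 bases printed hold none. The 34 bases nearest that start lie in an annotated gene and were not printed.
Col4a6: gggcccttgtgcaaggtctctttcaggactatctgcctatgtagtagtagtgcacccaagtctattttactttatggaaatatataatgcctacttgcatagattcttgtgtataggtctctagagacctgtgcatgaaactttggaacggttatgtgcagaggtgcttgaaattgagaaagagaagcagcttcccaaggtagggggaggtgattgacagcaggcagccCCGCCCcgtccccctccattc
Col4a5: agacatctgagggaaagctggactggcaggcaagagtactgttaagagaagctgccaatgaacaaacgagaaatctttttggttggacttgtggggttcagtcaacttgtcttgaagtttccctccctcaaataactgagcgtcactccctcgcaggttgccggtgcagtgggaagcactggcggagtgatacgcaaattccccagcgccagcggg

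Col4a1 and Col4a2, the other well expressed pair, overlap by 22 bases at their starts. Col4a1 was at 143, 255, 131, 105 and 104 CPM in untreated and 155, 436, 212, 138 and 131 CPM in Fl/+ 4-OHT libraries. The culture of mouse 24 was highest in both groups, the level was higher in 5 of 5 mice, and the groups overlapped. Without the block the log2 fold change was 0.54 ± 0.36 (SE), edgeR adjusted p = 0.347, and with it 0.46, adjusted p = 0.0141. Col4a2 ran from 23.8 to 42.1 CPM and then from 30.9 to 78.4 CPM, with a log2 fold change of 0.54 ± 0.27 (SE), edgeR adjusted p = 0.203, and with the block 0.47, adjusted p = 0.0165. The ratio of Col4a1 to Col4a2 per kilobase was 4.07 ± 0.825 in untreated, 4.01 ± 0.538 in Fl/+ 4-OHT and 3.08 ± 0.163 in Fl/Fl 4-OHT libraries (SD, n = 5), where every Fl/Fl library lay below every Fl/+ library. Col4a3 and Col4a4, a pair 71 bases apart, stayed at or under 0.770 CPM in both Fl/+ groups and were not called after 4-OHT (log2 fold changes -0.80 and -0.69, adjusted p = 0.291 and 0.373 by edgeR).

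Among the FACIT genes 3 rose and 1 fell of 9 tested after 4-OHT, beside 7.34% higher and 6.45% lower of all genes. Col12a1 was at 13.6, 31.9, 6.96, 9.04 and 12.9 CPM in untreated and 63.8, 325, 60.8, 80.9 and 83.8 CPM in Fl/+ 4-OHT libraries. It rose in all 5 mice without overlap, and mouse 24 was highest before and after treatment. The log2 fold change was 3.05 ± 0.57 (SE), edgeR adjusted p = 0.00626. Without the treated culture of mouse 24 it was 2.29 (adjusted p = 0.00571), and without both cultures of that mouse 2.78 (adjusted p = 0.000561), by edgeR.

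Col16a1 was at 88.1, 110.2, 120.3, 69.4 and 69.3 CPM in untreated and 229.5, 162, 178, 187 and 196 CPM in Fl/+ 4-OHT libraries. All treated libraries were above the untreated ones, by a log2 fold change of 1.06 ± 0.17 (SE), edgeR adjusted p = 0.00258. Col9a2, a chain of the cartilage collagen IX, was at 5.93, 8.02, 10.4, 6.69 and 6.59 CPM and then 4.09, 2.31, 4.42, 3.92 and 3.67 CPM. It fell in 5 of 5 mice without overlap, by a log2 fold change of -1.03 ± 0.22 (SE), edgeR adjusted p = 0.0107. Its partner chain Col9a3 went the other way in each mouse, from 18.9, 17.5, 21.1, 23.0 and 18.8 to 25.2, 20.0, 24.7, 29.5 and 23.0 CPM, but was called only with the block (0.30, adjusted p = 0.127 without it, and 0.30, adjusted p = 0.0342 with it, by edgeR). The third collagen IX chain, Col9a1, was between 1.52 and 6.59 CPM in Fl/+ 4-OHT libraries and was not called (log2 fold change 0.90 ± 0.35 (SE), edgeR adjusted p = 0.113).

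Col19a1 was near the floor in untreated libraries, with 12 counts in the 5 libraries together, and had 148 counts after 4-OHT. By library it was at 0.0724, 0.105, 0.0350, 0.0770 and 0.147 CPM and then 2.43, 0.665, 0.593, 0.485 and 0.917 CPM, with every treated library above. The ratio of the summed counts, scaled by library size, was 11.8 (95% exact binomial interval 6.58 to 23.5, counting error only). The fitted log2 fold change was 3.49 ± 0.57 (SE), edgeR adjusted p = 0.00298, and without the treated culture of mouse 19, the highest, 2.88 (adjusted p = 0.00301, edgeR). Col14a1 was lower in 5 of 5 mice, at 0.610 ± 0.296 and then 0.221 ± 0.130 CPM (SD, n = 5), with a log2 fold change of -1.45 ± 0.44 (SE), edgeR adjusted p = 0.0522, and with the block -1.47, adjusted p = 0.0124. Col20a1 and Col22a1 were not called (log2 fold changes 0.70 and -0.09, adjusted p = 0.237 and 0.925 by edgeR).

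Of the 8 fibrillar genes tested after 4-OHT, 1 was called, beside 13.8% of all genes, and this was Col11a1. This chain of collagen XI, a minor partner of cartilage fibrils, was at 52.0, 47.8, 46.9, 73.2 and 79.7 CPM in untreated and 139, 82.4, 70.8, 177 and 179.7 CPM in Fl/+ 4-OHT libraries. It was higher in 5 of 5 mice, while the treated culture of mouse 26 lay within the untreated range. The log2 fold change was 1.12 ± 0.28 (SE), edgeR adjusted p = 0.0222, and leaving out any of 5 single libraries (the untreated cultures of mice 19 and 26 and the treated cultures of mice 19, 35 and 36) took the adjusted p to between 0.0508 and 0.0554 by edgeR. Its partner Col11a2 was not called (log2 fold change -0.03 ± 0.43 (SE), edgeR adjusted p = 0.972). Col5a1, a chain that starts fibrils together with collagen I, ran from 7.12 to 28.2 CPM and then from 20.9 to 35.8 CPM, and was called only with the block (0.81, adjusted p = 0.0454, by edgeR). Col5a2, its partner, was lower in 5 of 5 mice, and was likewise called only with the block (-0.34, adjusted p = 0.0252, by edgeR). Col1a1, Col2a1, Col5a3 and Col27a1 had log2 fold changes of 0.44, 0.76, -0.09 and 0.15 with adjusted p of 0.428, 0.403, 0.909 and 0.787 by edgeR.

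In the remaining classes, Col6a1, a chain of the beaded filaments, was at 2.03, 1.12, 1.68, 1.73 and 2.80 CPM in untreated and 5.71, 2.69, 4.82, 7.21 and 8.78 CPM in Fl/+ 4-OHT libraries. It was higher in 5 of 5 mice, with the treated culture of mouse 24 just within the untreated range, and had a log2 fold change of 1.64 ± 0.33 (SE), edgeR adjusted p = 0.00862. Its partners Col6a2 and Col6a3 were not called (log2 fold changes 0.37 and 0.65, adjusted p = 0.624 and 0.278 by edgeR). The ratio of Col6a1 to Col6a2 per kilobase was 6.50 ± 1.11 in untreated, 19.1 ± 6.15 in Fl/+ 4-OHT and 19.5 ± 3.10 in Fl/Fl 4-OHT libraries (SD, n = 5). This ratio is coarse, because Col6a2 had few counts. They were 11 to 18 per untreated, 7 to 42 per Fl/+ 4-OHT and 15 to 86 per Fl/Fl 4-OHT library. Of the transmembrane collagens, Col23a1 was lower in 5 of 5 mice and called only with the block (-0.71, adjusted p = 0.0358, by edgeR), and Col13a1 was not called. Col7a1, the anchoring fibril gene, and Col26a1 were not called either (log2 fold changes 0.21 and -0.29, adjusted p = 0.527 and 0.337).

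**Figure D3:**
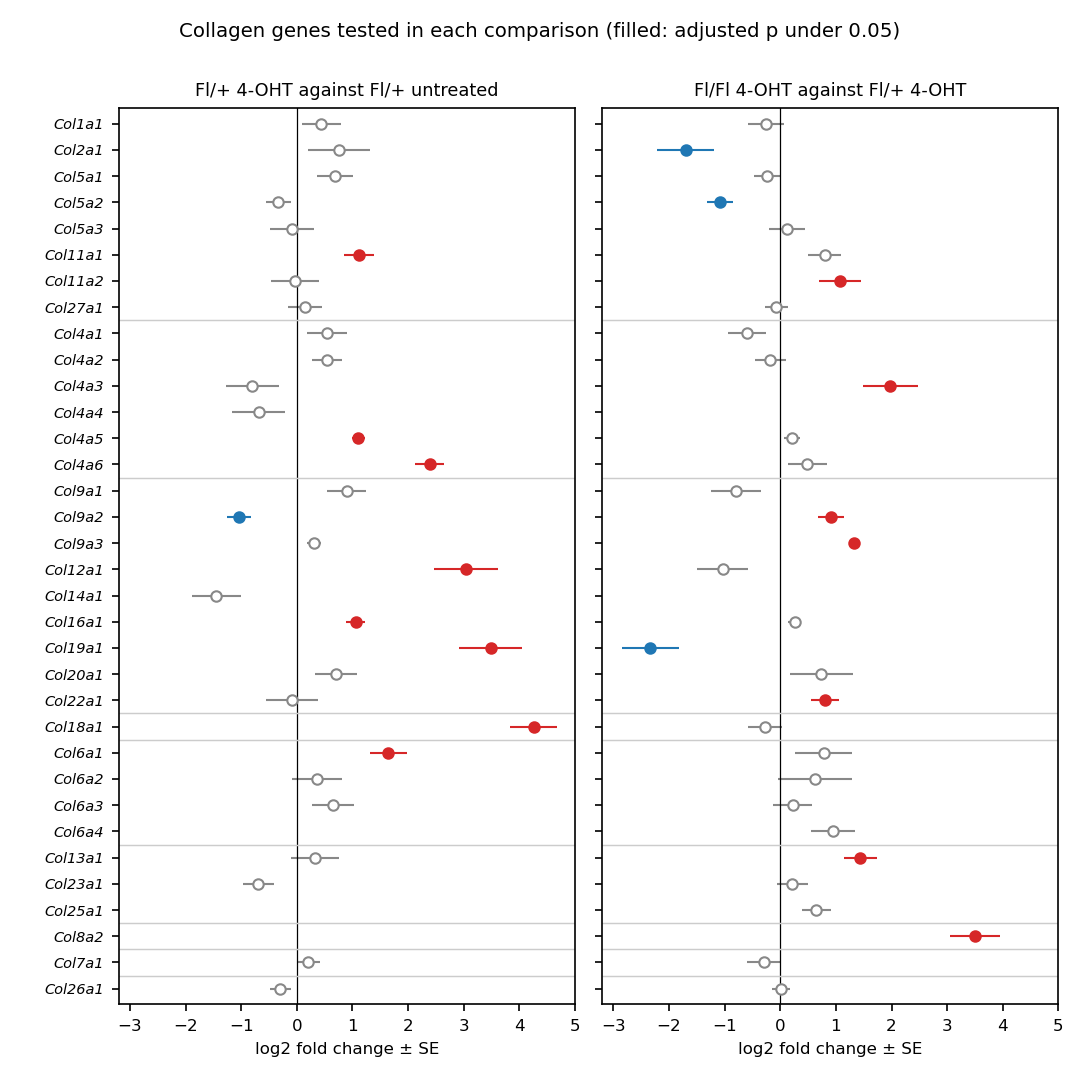
Log2 fold change with its standard error for the collagen genes tested, after 4-OHT on the left and after Trrap deletion on the right, with genes in rows by class. Filled points passed an adjusted p under 0.05, red for higher and blue for lower, which are 9 genes on the left and 10 genes on the right, and open points did not pass.

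After Trrap deletion, 7 of the 32 collagen genes tested rose and 3 fell. Col8a2, Col4a3, Col13a1, Col9a3, Col11a2, Col9a2 and Col22a1 rose, and Col19a1, Col2a1 and Col5a2 fell. Over all 15036 genes tested 31.7% were called, 16.8% higher and 15.0% lower, a share like that of the collagen genes. The median log2 fold change was 0.22 for the 32 genes and 0.02 for all genes. Between the groups, 5 collagen genes had no overlap, which are Col8a2, Col9a2, Col9a3, Col13a1 and Col19a1, against 22.6% of all genes. With the library labelled Fl/Fl 39 left out 9 genes were called, against 26.7% of all genes, where Col2a1 and Col22a1 were lost and Col16a1 was gained. With the Fl/Fl libraries of mice 37 and 39 both left out 8 were called, against 23.6% of all genes, where Col2a1, Col11a2 and Col22a1 were lost and Col5a1 was gained. DESeq2 called 12, against 31.1% of all genes with an adjusted p, which were the 10 genes, Col11a1 (0.78, adjusted p = 0.0275) and Col15a1 (2.28, adjusted p = 0.0161). Col15a1, a multiplexin that edgeR's filter dropped, ran from 0.0317 to 0.106 CPM in Fl/+ 4-OHT and from 0.0387 to 0.417 CPM in Fl/Fl 4-OHT libraries, with overlap, and edgeR without a filter called it too (2.22, adjusted p = 0.0224).

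The lowest adjusted p after deletion was that of the FACIT gene Col9a3. It was at 25.2, 20.0, 24.7, 29.5 and 23.0 CPM in Fl/+ 4-OHT and 61.4, 57.3, 59.7, 60.7 and 65.0 CPM in Fl/Fl 4-OHT libraries. The Fl/Fl libraries lay close together and all above the others, with a log2 fold change of 1.33 ± 0.10 (SE), edgeR adjusted p = 2.74e-05. Col9a2 was at 9.26, 6.39, 8.55, 5.18 and 4.93 CPM in Fl/Fl 4-OHT libraries, above all Fl/+ 4-OHT libraries and within the range of 5.93 to 10.4 CPM of untreated cultures apart from mice 37 and 39, which were lower. It rose by a log2 fold change of 0.92 ± 0.23 (SE), edgeR adjusted p = 0.0125. Col9a1 was not called (log2 fold change -0.80 ± 0.45 (SE), edgeR adjusted p = 0.204), with 1.40, 1.77, 3.38, 2.86 and 0.764 CPM in Fl/Fl 4-OHT libraries. The ratio of Col9a3 to Col9a2 per kilobase was 2.20 ± 0.495 in untreated, 5.50 ± 1.00 in Fl/+ 4-OHT and 7.63 ± 2.32 in Fl/Fl 4-OHT libraries, and the ratio of Col9a1 to Col9a2 was 0.160 ± 0.0267, 0.587 ± 0.308 and 0.187 ± 0.104 (SD, n = 5).

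Col19a1 fell after deletion. It was at 0.155, 0.272, 0.197, 0.0773 and 0.278 CPM in Fl/Fl 4-OHT libraries, all below the Fl/+ 4-OHT libraries, with a log2 fold change of -2.33 ± 0.51 (SE), edgeR adjusted p = 0.00602. Over the 5 libraries of each group together it had 148 counts in Fl/+ 4-OHT and 29 counts in Fl/Fl 4-OHT cultures. Without the Fl/+ 4-OHT culture of mouse 19 the log2 fold change was -1.73 (adjusted p = 0.00756, edgeR). Col22a1 was at 0.811, 1.804, 0.711, 1.11 and 1.38 CPM in Fl/+ 4-OHT and 2.30, 2.14, 1.90, 1.62 and 2.12 CPM in Fl/Fl 4-OHT libraries. Only the Fl/+ culture of mouse 24 reached into the Fl/Fl range, and the log2 fold change was 0.80 ± 0.26 (SE), edgeR adjusted p = 0.0343. The call of Col22a1 was lost under 10 of 18 alternative settings. Col12a1, Col16a1 and Col20a1 were not called (log2 fold changes -1.03, 0.26 and 0.74, adjusted p = 0.1096, 0.118 and 0.339 by edgeR). Without the Fl/+ 4-OHT culture of mouse 24 that of Col12a1 was -0.28.

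Among the fibrillar genes, Col5a2 fell. It was at 52.8, 85.8, 37.1, 55.5 and 62.5 CPM in Fl/+ 4-OHT and 28.1, 20.97, 18.6, 31.2 and 38.8 CPM in Fl/Fl 4-OHT libraries, where only the library labelled Fl/Fl 39 reached the lowest Fl/+ 4-OHT library. The log2 fold change was -1.08 ± 0.24 (SE), edgeR adjusted p = 0.00571. Its partner Col5a1 was not called (-0.24, adjusted p = 0.482 by edgeR), but was called lower without the Fl/Fl library of mouse 37 (-0.53, adjusted p = 0.0331 by edgeR), where it was at 41.3 CPM against 16.4 to 23.4 CPM in the other Fl/Fl libraries. With all libraries the ratio of Col5a2 to Col5a1 per kilobase was 1.99 ± 1.04 in Fl/+ 4-OHT and 1.08 ± 0.321 in Fl/Fl 4-OHT libraries (SD, n = 5), with overlap. Col2a1, the main collagen of cartilage, was at 0.406, 1.30, 1.146, 1.39 and 2.12 and 0.2796, 0.102, 0.754, 0.580 and 0.208 CPM, a low level in both groups, with overlap and a log2 fold change of -1.70 ± 0.51 (SE), edgeR adjusted p = 0.0275. Its call was lost under 5 of 17 alternative settings.

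Of the collagen XI genes Col11a2 rose. It was at 7.06, 2.75, 10.1, 3.33 and 5.85 CPM in Fl/+ 4-OHT and 10.5, 10.1, 18.8, 15.0 and 6.22 CPM in Fl/Fl 4-OHT libraries. The groups overlapped, the log2 fold change was 1.08 ± 0.38 (SE), edgeR adjusted p = 0.0482, and the call was lost under 12 of 18 alternative settings. Col11a1 was at 165, 216, 162, 353 and 218 CPM in Fl/Fl 4-OHT libraries, with the culture of mouse 37 highest, and was not called by edgeR (log2 fold change 0.80 ± 0.29 (SE), edgeR adjusted p = 0.0559). Col1a1, Col5a3 and Col27a1 were not called (log2 fold changes -0.26, 0.12 and -0.07).

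Col8a2, a short-chain collagen of the corneal inner membrane, had the largest log2 fold change after deletion but a low level. It was at 0.135, 0.127, 0.0790, 0.139 and 0.282 CPM in Fl/+ 4-OHT and 3.20, 1.46, 1.05, 0.889 and 2.12 CPM in Fl/Fl 4-OHT libraries. All Fl/Fl libraries lay above, with a log2 fold change of 3.50 ± 0.45 (SE), edgeR adjusted p = 0.000351. The summed counts were 22 and 262, a ratio of 11.7 after scaling by library size (95% exact binomial interval 7.54 to 18.9, counting error only). In untreated cultures it was at 0.109, 0.105, 0.210, 2.69 and 0.810 CPM, so that mice 35 and 36 reached the Fl/Fl range or came near it before treatment. Col13a1, a transmembrane collagen of neuromuscular junctions and other adhesion sites, was at 0.169, 0.506, 0.632, 0.416 and 0.388 and 1.40, 0.952, 1.02, 1.20 and 1.11 CPM, again without overlap, with a log2 fold change of 1.44 ± 0.29 (SE), edgeR adjusted p = 0.00424.

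The stretches before the starts of both genes are shown because these genes rose without overlap between libraries and differ in GC boxes. They cover chr4:126286544-126286792 on the plus strand for Col8a2 and chr10:61979109-61979358 on the minus strand for Col13a1 (RefSeq, GRCm38.p6). Col8a2 holds 4 GC boxes, in capitals, of which the last 2 overlap, and Col13a1 holds none.
Col8a2: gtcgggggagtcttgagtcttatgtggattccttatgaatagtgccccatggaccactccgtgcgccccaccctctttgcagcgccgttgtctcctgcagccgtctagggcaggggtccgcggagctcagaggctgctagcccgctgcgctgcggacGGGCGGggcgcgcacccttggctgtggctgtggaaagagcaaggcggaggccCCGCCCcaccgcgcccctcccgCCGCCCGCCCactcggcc
Col13a1: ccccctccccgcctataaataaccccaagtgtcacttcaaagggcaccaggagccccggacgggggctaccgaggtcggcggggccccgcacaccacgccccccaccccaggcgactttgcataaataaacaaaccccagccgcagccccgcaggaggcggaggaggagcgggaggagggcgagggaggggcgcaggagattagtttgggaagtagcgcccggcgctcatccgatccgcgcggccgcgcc

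Of the collagen IV genes Col4a3 rose, from 0.270, 0.0633, 0.237, 0.139 and 0.635 CPM in Fl/+ 4-OHT to 0.559, 0.884, 1.34, 1.66 and 0.833 CPM in Fl/Fl 4-OHT libraries. The Fl/Fl library of mouse 27 lay below the highest Fl/+ 4-OHT library, and the log2 fold change was 1.98 ± 0.49 (SE), edgeR adjusted p = 0.0111. Col4a4, 71 bases away, was dropped by edgeR's filter, and DESeq2 did not call it (0.14, adjusted p = 0.879). Col4a1, Col4a2, Col4a5 and Col4a6 were not called (log2 fold changes -0.60, -0.18, 0.21 and 0.49, adjusted p = 0.198 to 0.664 by edgeR). Col4a5 was at 190.0, 236, 209, 349.6 and 231 CPM and Col4a6 at 101, 128, 124, 357 and 144 CPM in Fl/Fl 4-OHT libraries, both highest in the culture of mouse 37. Without that library the log2 fold change of Col4a6 was 0.021.

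No beaded filament gene was called after deletion among the 4 tested, with log2 fold changes of 0.22 to 0.94. Over all genes 31.7% were called, and 4 genes are too few to set against that share. Col6a1 was at 4.23, 5.47, 5.93, 27.1 and 7.12 CPM in Fl/Fl 4-OHT libraries, and without the culture of mouse 37 its log2 fold change went from 0.78 to -0.035 and that of Col6a2 from 0.63 to -0.40. The same library was highest for Col20a1, at 23.2 CPM against 2.05 to 9.63 CPM in the other Fl/Fl libraries. It also stood highest in the oligodendrocyte lineage markers, which summed to 3999 CPM there, with 1013 CPM of the myelin gene Mbp against 81.0 to 154 CPM in the other Fl/Fl libraries. The part of this in the collagen levels of that library was not tested. Col6a3, Col6a4, Col7a1, Col18a1, Col23a1, Col25a1 and Col26a1 were not called, with adjusted p of 0.0781 for Col25a1 to 0.966 for Col26a1 by edgeR.

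**Figure D4:**
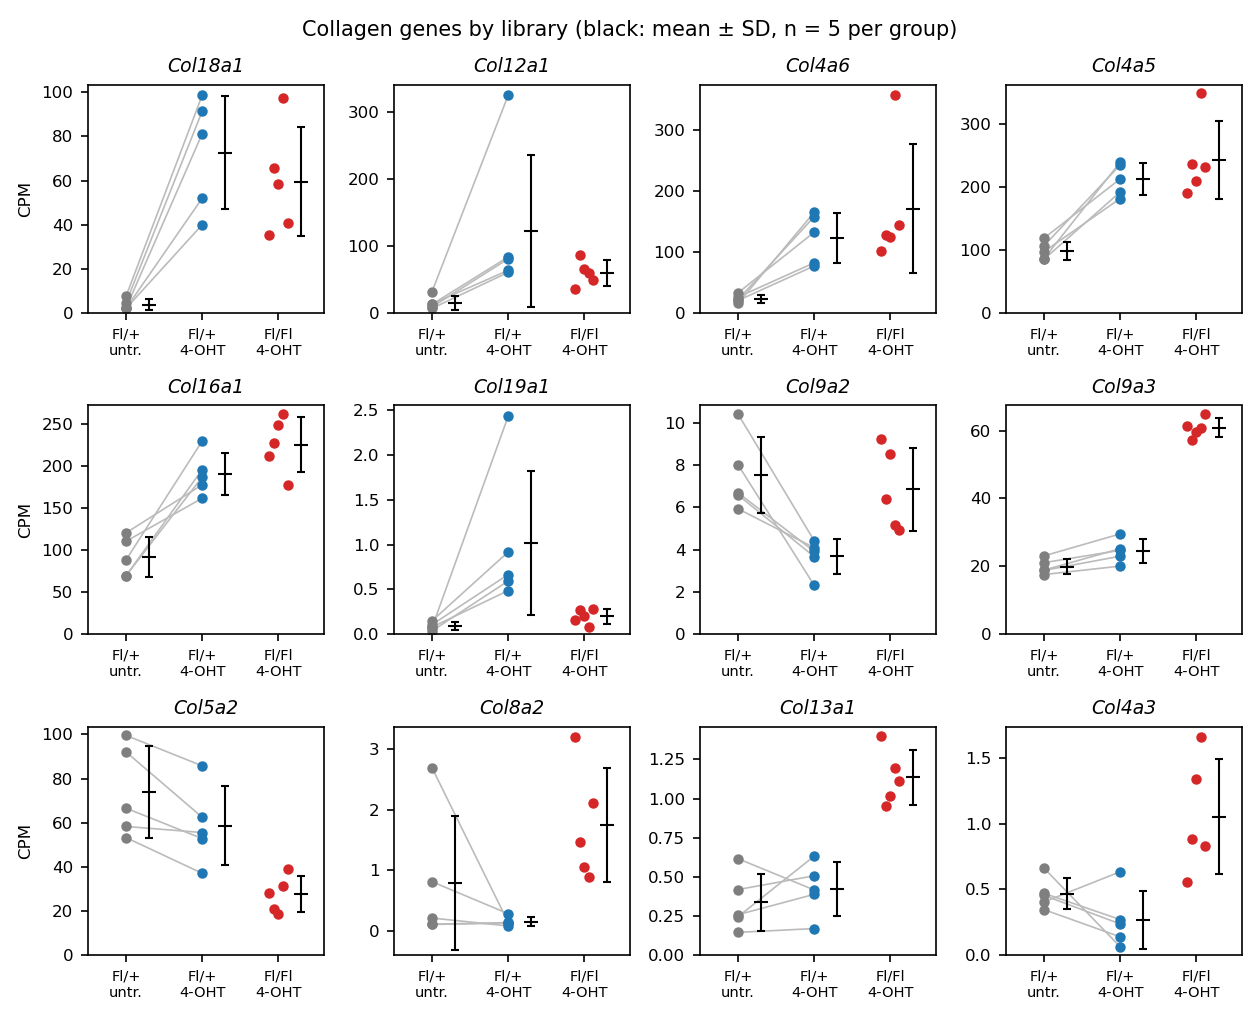
CPM of 12 collagen genes in every library, with 1 panel per gene, points for libraries, grey lines joining both Fl/+ cultures of a mouse and black marks for the mean ± SD (n = 5 per group, untr. for untreated). Col18a1, Col12a1, Col4a6, Col4a5, Col16a1 and Col19a1 rise and Col9a2 falls along each grey line, and the Fl/Fl points of Col9a3, Col8a2 and Col13a1 lie above all Fl/+ 4-OHT points.

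Beside each other, Col9a2 had log2 fold changes of -1.03 after 4-OHT and 0.92 after deletion, and Col19a1 of 3.49 and -2.33. Opposite signs can arise here because the Fl/+ 4-OHT libraries stand on both sides. The other 7 genes called after 4-OHT had log2 fold changes between -1.03 (Col12a1) and 0.80 (Col11a1) after deletion, where the value of Col12a1 was -0.28 without the Fl/+ 4-OHT culture of mouse 24.

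The 48 genes that modify, export, cleave, cross-link or bind collagens were read from 6 lists. After 4-OHT 14 of 43 tested were called, 11 higher and 3 lower, and with the block 22, 17 higher and 5 lower, beside the 13.8% of all genes called without the block (7.34% higher and 6.45% lower) and 25.7% with it. The median log2 fold change was 0.20. The prolyl hydroxylase subunit P4ha2 was at 4.23, 11.2, 1.82, 0.616 and 0.331 CPM in untreated and 15.99, 36.5, 26.1, 22.1 and 24.7 CPM in Fl/+ 4-OHT libraries. All treated libraries were above (log2 fold change 2.78 ± 0.74 (SE), edgeR adjusted p = 0.0301), and without the untreated culture of mouse 24, the highest of its group, the log2 fold change was 3.83. P3h2, another prolyl hydroxylase, rose from 3.68 ± 1.05 to 16.04 ± 2.996 CPM, and the procollagen proteinases Adamts3 and Adamts14 rose from 2.37 ± 0.937 to 12.9 ± 7.33 and from 29.2 ± 12.3 to 125 ± 38.4 CPM (SD, n = 5), each without overlap. The adjusted p were 0.000434, 0.00505 and 0.00187 by edgeR. The lysyl hydroxylase Plod1, the cyclophilin Ppib and the collagen-binding adhesion receptor Adgrg1 fell, by log2 fold changes of -0.54, -0.34 and -0.53 (adjusted p = 0.00274, 0.0448 and 0.0280 by edgeR). By list, 4 of 9 prolyl hydroxylation genes, 3 of 5 lysyl modification genes, 0 of 8 folding and export genes, 2 of 7 propeptide cleavage genes, 2 of 4 cross-linking genes and 3 of 10 receptors were called, again to be read beside 13.8% of all genes.

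After deletion 12 of the 45 pathway genes tested were called, 6 higher and 6 lower, beside 31.7% of all genes, so that the count is no larger than the background. The median log2 fold change was -0.04. Sec23a, a coat protein of the vesicles that carry procollagen out of the endoplasmic reticulum, was at 117, 129, 114, 125 and 132 CPM in Fl/+ 4-OHT and 71.1, 69.2, 68.7, 78.3 and 73.1 CPM in Fl/Fl 4-OHT libraries. All Fl/Fl libraries were below, with a log2 fold change of -0.76 ± 0.06 (SE), edgeR adjusted p = 4.56e-05. Pcolce2 and Pcolce, enhancers of procollagen cleavage, moved apart, by -1.46 ± 0.21 (SE), edgeR adjusted p = 0.000631, and by 1.17 ± 0.25 (SE), edgeR adjusted p = 0.00570. Tmem38b, a cation channel of the endoplasmic reticulum, rose from 13.9 ± 1.04 to 24.5 ± 1.41 CPM, Plod1 from 86.1 ± 7.92 to 134 ± 13.6 CPM and the collagen receptor kinase Ddr1 from 802 ± 76.97 to 1055 ± 143 CPM (SD, n = 5), without overlap and with adjusted p of 0.000124, 0.000532 and 0.0133 by edgeR. Adamts3 and the glycosyltransferase Colgalt2 fell, by log2 fold changes of -1.32 and -0.78 (adjusted p = 0.0210 and 0.0420 by edgeR). Plod1 and Adamts3 were called with the opposite sign after 4-OHT, where the Fl/+ 4-OHT libraries stand on the other side. In untreated cultures Plod1 was at 125 ± 9.545 CPM and Adamts3 at 2.37 ± 0.937 CPM (SD, n = 5). By list, 2 of 10, 3 of 5, 2 of 8, 4 of 7, 0 of 5 and 1 of 10 genes were called, in the order given above, again to be read beside 31.7% of all genes. With the Fl/Fl libraries of mice 37 and 39 both left out, 7 pathway genes were called, beside 23.6% of all genes.

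Markers of cell types that make much collagen were low. The 8 fibroblast markers summed to 20.5 to 28.6 CPM in untreated, 18.8 to 34.8 CPM in Fl/+ 4-OHT and 28.0 to 52.7 CPM in Fl/Fl 4-OHT libraries, mostly Thy1 and Islr, with Dcn, Lum and Fap at no more than 3 counts in every library. The 8 endothelial markers summed to 13.3 to 26.2 CPM in untreated, 21.7 to 64.0 CPM in Fl/+ 4-OHT and 22.4 to 48.5 CPM in Fl/Fl 4-OHT libraries, with Cdh5, Cldn5 and Tie1 at no more than 3 counts. Of these Flt1 was higher after 4-OHT (log2 fold change 1.11 ± 0.33 (SE), edgeR adjusted p = 0.0448), beside the collagen genes that rose, and its part in those levels was not tested. The 8 chondrocyte markers summed to 1.33 to 2.92 CPM in untreated, 1.35 to 2.15 CPM in Fl/+ 4-OHT and 3.58 to 9.93 CPM in Fl/Fl 4-OHT libraries, with Comp, Chad and Snorc at no more than 3 counts. Of the 2 tested after deletion, Matn1 was called higher (log2 fold change 3.91, adjusted p = 0.00236 by edgeR), against 16.8% of all genes. Among the cartilage collagens Col9a2, Col9a3 and Col11a2 were called higher and Col2a1 lower (log2 fold change -1.70). Col11a1 (0.80) and Col9a1 (-0.80) were not called by edgeR. The part of such cells in these levels was not tested. The 8 mural cell markers summed to 1.33 to 28.6 CPM, the 8 microglia markers to at most 1.91 CPM and the 6 choroid plexus markers to 1.49 to 24.6 CPM. The last had Ttr and Kcne2 at no more than 3 counts and were highest, through Otx2, in both cultures of mouse 24. Col4a1 and Col12a1 were highest there too. Otx2 was at 24.1 CPM in the untreated culture of mouse 24 and at 17.9 CPM in that of mouse 36. In the latter Col4a1, at 104 CPM, was the lowest of the untreated libraries, and Col12a1 was at 12.9 CPM. The part of such cells in those levels was not tested. Cldn2 of the choroid plexus list was higher after deletion. The 10 oligodendrocyte lineage markers summed to 418 to 1557 CPM in untreated, 1017 to 1895 CPM in Fl/+ 4-OHT and 1190 to 3999 CPM in Fl/Fl 4-OHT libraries. After 4-OHT 7 of the 10 were called higher, against 7.34% of all genes, beside the 8 collagen genes that rose. After deletion 1 of 10 was called higher, against 16.8% of all genes. The part of these cells in the collagen changes was not tested.

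The GC box, GGGCGG or its reverse complement, is bound by Sp1, the factor the study followed, and was counted in the 250 bases before each RefSeq start. It was present in 21 of 35 collagen genes with an entry, which is 60%, in 17 of the 25 tested among them, which is 68%, and in 64.2% of the 11091 genes tested with an entry. Over all 27025 genes with an entry it was present in 35.4%. Of the genes called after 4-OHT 6 of 8 held a box and of those called after deletion 3 of 5. The share among tested collagen genes was near that of all tested genes. A match of letters describes the sequence and does not show binding.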

How the data were processed

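Poly(A) RNA of 15 cultures was sequenced by the authors from TruSeq stranded libraries (bcl2fastq 1.8.4), mapped to GRCm38 with STAR 2.5.4b and counted per gene by strand with featureCounts 1.5.0. What the authors deposited are raw counts of uniquely mapped reads, so reads shared with near-identical copies were dropped by the authors, and without molecular identifiers PCR copies were counted. All 15 columns were used. Symbols and exon lengths came from GENCODE M21, which matched 53706 of 53801 genes. The labels state the 4-OHT dose in millimolar and the study's methods in micromolar, and the methods describe a shorter exposure than the 5 days of the labels, followed by fresh medium, so no dose is printed.

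Each comparison was fitted on its own 10 libraries with edgeR 4.0.16 (limma 3.58.1, R 4.3.3), using TMM scaling, filterByExpr with a minimum count of 10 and the quasi-likelihood test, with Benjamini-Hochberg adjustment over all genes tested and a threshold of 0.05. Fits were tested on simulated data. CPM used TMM-scaled totals, and CPM per kb divides by exon length. That is the merged length of all annotated exons of a gene, on which levels and ratios between genes depend. Plots on a log scale add 0.5 CPM. Totals of 25.7 M to 32.2 M counts put 3 counts at about 0.105 CPM, and intervals cover counting error only. The 5 cultures of a group carry different mouse numbers per the labels. Same-numbered Fl/+ cultures come from 1 mouse per the labels, and their deviations from the group means correlated at 0.204 to 0.586 over 15435 genes, against -0.489 to 0.317 between mice. Alternatives were the mouse block, DESeq2 1.42.0, other scalings and filters, a shared dispersion, sex as covariate and leaving out libraries.

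The collagen genes, classes, pathway lists and markers were chosen with earlier results of these data known. Values per library are given for called collagen genes whose mean reached 1 CPM and for the 3 highest per length in untreated cultures. Low-count called genes (Col2a1, Col4a3, Col8a2, Col13a1, Col19a1), some partner chains and genes called by DESeq2 alone were added after their values were seen. Pathway genes named are the 4 largest called rises and falls.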

Additional observations from a re-analysis of the deposited data

Results flagged for a closer look

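Dixon's test on the extreme library of each group was run on 66 groups of 5 libraries, which are the 3 groups of each of the 22 genes given library by library (19 collagen genes, Trrap, P4ha2 and Sec23a), and 9 passed its critical value of 0.71. Chance alone gives about 1 in 20 where values are normally distributed. The test was run on CPM, all flagged values were high ones, and some of the genes were added after their values were seen. The number flagged is therefore no measure of how unusual the libraries are. Both cultures of mouse 24 stood apart. In untreated cultures Col4a1 was at 255 CPM against 104 to 143 CPM in the other 4 libraries, and Col12a1 at 31.9 CPM against 6.96 to 13.6 CPM in the other 4 libraries. After 4-OHT Col4a1 was at 436 CPM against 131 to 212 CPM in the other 4 libraries, and Col12a1 at 325 CPM against 60.8 to 83.8 CPM in the other 4 libraries. In the Fl/Fl 4-OHT culture of mouse 37, Col4a6 was at 357 CPM against 101 to 144 CPM in the other 4 libraries, and Col6a1 at 27.1 CPM against 4.23 to 7.12 CPM in the other 4 libraries. In the untreated culture of mouse 36, Col22a1 was at 3.02 CPM against 0.455 to 1.12 CPM in the other 4 libraries. In the untreated culture of mouse 35, Col8a2 was at 2.69 CPM against 0.105 to 0.810 CPM in the other 4 libraries. In the Fl/+ 4-OHT culture of mouse 19, Col19a1 was at 2.43 CPM against 0.485 to 0.917 CPM in the other 4 libraries.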

How the results depend on the processing

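Of the values of called collagen genes under alternative settings, 148 of 175 after deletion and 174 of 179 after 4-OHT kept their direction and their side of the threshold, and the others lost the call with the same sign. The share of all genes called stands in parentheses where a comparison's setting first appears. After deletion 10 collagen genes were called (31.7%), 12 with DESeq2 (31.1%), 7 to 10 with any 1 library left out (24.8% to 31.0%) and 5 with at least 10 counts required in every library (33.4%), a filter that removes low genes. Of the pathway genes 12 were called, 9 to 14 with 1 library left out, and 7 without the Fl/Fl libraries of mice 37 and 39 (23.6%), an alternative chosen after seeing the data. After 4-OHT 9 collagen genes were called (13.8%), 13 with DESeq2 (16.6%) and 8 to 12 with 1 library left out (8.46% to 16.7%). With the mouse number as a block there were 16 (25.7%), and 16 also with the block and both cultures of mouse 24 left out (18.1%), an alternative chosen after seeing the data, of which 12 were shared, 4 were lost and 4 were gained. Leaving out both cultures without the block, also chosen after seeing the data, gave 12 (9.28%). Of the pathway genes 14 were called, 22 with the block, 19 with DESeq2 and 9 to 15 with 1 library left out, the lowest without the untreated culture of mouse 26. The causes were not tested. The sign turned only for collagen genes that were not called. After deletion, without mice 37 and 39, log2 fold changes were -0.052 for Col4a6, -0.027 for Col5a3, -0.16 for Col6a1, -0.49 for Col6a2 and -0.0036 for Col26a1, and with DESeq2 -0.0019 for Col26a1. With 1 library left out they ran over Col4a2 -0.31 to 0.096, Col5a3 -0.091 to 0.30, Col6a1 -0.035 to 0.97, Col6a2 -0.40 to 1.10, Col20a1 -0.074 to 0.99, Col26a1 -0.098 to 0.088 and Col27a1 -0.23 to 0.060. After 4-OHT, Col11a2 was at 0.024 with library size alone, 0.080 with sex as covariate, 0.20 without mouse 24 and 0.31 with the block too. Col22a1 was at 0.0087 with sex and 0.078 with the block. With 1 library left out the ranges were Col5a3 -0.28 to 0.12, Col6a2 -0.092 to 0.61, Col11a2 -0.30 to 0.34, Col22a1 -0.30 to 0.54 and Col27a1 -0.0068 to 0.44. Depth limits genes below about 1 CPM, among them the called Col4a3, Col8a2, Col13a1, Col19a1 and Col2a1.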
